A study of Mus musculus with 12 samples.

Results

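Ercc5, Mgmt, Parp3 and Rev1 are DNA repair genes that the authors' deposited table lists as higher after Prmt5 deletion in neural progenitor cells (NPC), where most listed repair genes were lower. They were chosen by that direction, so their rise is a description of the choice and carries no test here. They are 4 of the 2416 rows listed as changed in NPC, and 4 of the 56 listed members of a set of 142 repair and damage-response genes.

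The study sequenced RNA of 12 libraries, with 3 for each of 4 groups. NPC were neurospheres from the cortex of E14.5 mouse embryos, kept with epidermal and basic fibroblast growth factors and treated at day 4, and the mouse embryonic fibroblasts (MEF) were passage 1 primary cells of the same stage, grown to confluence. All cells, controls included, had the genotype written Prmt5 F/FER in the labels, on a mixed C57BL/6 X 129S1/SvlmJ background, and received either 50 nM 4-hydroxytamoxifen (4-OHT), which triggers loss of Prmt5, or ethanol for 24 h. No group is labelled as 4-OHT given to cells without the conditional allele, so the drug and the loss of Prmt5 cannot be told apart. The labels do not name the promoter behind the inducible recombinase, nor do they say whether the 3 libraries of a group came from separate cultures or embryos.

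The expression tables hold 1 RPKM value (reads scaled to transcript length and library size) for each treatment, made by the authors from 3 libraries, so no spread between libraries can be shown and the depth is unknown. In bulk RNA, a shift in the share of cells and a change in RNA per cell cannot be told apart. The tables list only genes with an unadjusted Cuffdiff p under 0.05 and a change over 1.5-fold. Prmt5, an arginine methyltransferase that acts on spliceosomal Sm proteins and histones, stood in the authors' deposited tables at 33.4 RPKM with ethanol against 4.92 with 4-OHT in NPC, and at 20.96 against 3.76 RPKM in MEF. Of 16 progenitor markers 3 are listed, Ednrb, Hes5 and Id1, at 86.0, 15.8 and 4.11 RPKM with ethanol in the authors' deposited table. Sox2 and Nes are not listed as changed, so their levels are not known and the NPC label was checked only in part.

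The members act on different kinds of damage. Ercc5 encodes XPG, the endonuclease that makes one of the incisions of nucleotide excision repair, the route that removes bulky and ultraviolet lesions. Mgmt encodes the methyltransferase that takes alkyl groups off guanine in a single step and is used up in doing so. Parp3 encodes an ADP-ribosyltransferase that is activated by DNA breaks and takes part in end joining. Rev1 encodes a translesion polymerase that places cytosine opposite damaged bases and serves as a platform for the other translesion polymerases.

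The promoters are shown as a description. The members share a direction in NPC because they were chosen by it, so no shared regulation is read from that. Each sequence runs 5′ to 3′ on the strand of the gene, ends at or before the first base of the GENCODE gene model, and comes from the RefSeq promoter table on GRCm38.p6. Positions are Ercc5 at chr1:44147494-44147743 on the plus strand, Mgmt at chr7:136894336-136894585 on the plus strand, Parp3 at chr9:106476950-106477199 on the minus strand and Rev1 at chr1:38129802-38129916 on the minus strand. Capitals mark the GC box (GGGCGG or CCGCCC), the CCAAT box (CCAAT or ATTGG) and a match to the p53 half-site consensus.
Ercc5: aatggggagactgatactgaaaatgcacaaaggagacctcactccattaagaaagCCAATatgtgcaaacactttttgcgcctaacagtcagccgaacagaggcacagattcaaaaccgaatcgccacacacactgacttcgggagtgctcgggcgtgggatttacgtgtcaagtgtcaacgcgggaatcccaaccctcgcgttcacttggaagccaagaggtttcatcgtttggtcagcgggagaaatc
Mgmt: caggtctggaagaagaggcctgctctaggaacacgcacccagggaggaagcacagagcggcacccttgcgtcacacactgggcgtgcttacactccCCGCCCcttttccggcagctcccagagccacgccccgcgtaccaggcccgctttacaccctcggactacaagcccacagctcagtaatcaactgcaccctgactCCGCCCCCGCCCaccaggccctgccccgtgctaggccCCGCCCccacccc
Parp3: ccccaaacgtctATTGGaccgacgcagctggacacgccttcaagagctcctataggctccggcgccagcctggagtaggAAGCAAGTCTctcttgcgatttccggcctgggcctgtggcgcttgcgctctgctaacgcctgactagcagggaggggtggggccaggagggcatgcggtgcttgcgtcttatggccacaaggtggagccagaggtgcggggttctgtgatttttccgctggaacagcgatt
Rev1: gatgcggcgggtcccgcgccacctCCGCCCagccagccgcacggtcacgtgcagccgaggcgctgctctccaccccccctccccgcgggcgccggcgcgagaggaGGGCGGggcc

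The 4 promoters had no common layout among the motifs searched. Motifs and base content were taken over the 250 bases before the RefSeq start. For Rev1, 135 of these lie inside the GENCODE gene model, which begins further upstream, and are not printed. Over this window, GC content was 50.0% for Ercc5, 61.2% for Parp3, 67.2% for Mgmt and 83.6% for Rev1, against a median of 52.4% over all 32851 promoters in the table and 58.8% over 37 promoters of lower repair genes. The observed-to-expected CpG ratio was 0.896 for Ercc5, 0.588 for Mgmt, 0.692 for Parp3 and 0.978 for Rev1, and the median was 0.373 over all promoters and 0.886 over those of the lower repair genes. GC boxes occurred 4 times in Mgmt and 2 times in Rev1, and were not found in the windows of Ercc5 and Parp3. At least 1 GC box was present in 32.7% of all promoters and in 54.1% of those of lower repair genes. A CCAAT box was present in Ercc5, 195 bases before the start, and in Parp3, 238 bases before it, and in 33.8% of all promoters and 54.1% of those of lower repair genes. The CHR motif TTTGAA was in the Ercc5 window, in 15.99% of all promoters and in 5.41% of those of lower repair genes. The TATA motif TATAAA was in none of the 4 windows and in 12.4% of all promoters. All motifs were searched on both strands.

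p53, the damage-responsive transcription factor, binds pairs of half-sites. Of 43 genes in a list of p53 targets and regulators 23 were listed in NPC, all 23 higher, beside 56.6% of all genes listed there. The list was chosen with earlier results known and is not complete. Fdxr, which it does not hold, was lower, at a log2 value of -0.72 per the authors' deposited table. The half-site was searched as well. The Parp3 window held 1 match, AAGCAAGTCT, 171 bases before the start, and the other three windows held none. The core of this match is CAAG. The more frequent core CATG was found in 53.9% of all promoters. Among the members it was in the Parp3 window alone, at a separate place from the half-site match. At least 1 half-site was found in 7.13% of all promoters, in 5 of 16 promoters of listed p53 targets and in 3 of 37 promoters of the lower repair genes. The promoter table matched 16 of 23 genes of the first set and 37 of 51 of the second. These matches describe the letters of the windows and do not show binding.

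Ercc5 had the highest level and the largest change of the members. It stood at 11.2 RPKM under ethanol and 26.8 RPKM under 4-OHT per the authors' deposited table, a log2 fold change of 1.26 with a p listed as 0. The smallest p above 0 in that table is 2.22e-16, and 102 genes are listed at 0. Read as a two-sided normal test, a p at that limit gives a standard error of at most 0.15 and a 95% interval from 0.96 to 1.55 for the log2 fold change. The gain of 15.6 RPKM was the largest of the 4.

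Mgmt more than doubled from a lower level. Its values per the authors' deposited table were 4.97 RPKM under ethanol and 11.1 RPKM under 4-OHT, a log2 fold change of 1.16 with a Cuffdiff p of 9.05e-08. The interval implied by that p runs from 0.73 to 1.58.

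Parp3 was the least abundant member. Per the authors' deposited table it had 1.26 RPKM under ethanol and 2.78 RPKM under 4-OHT, a log2 fold change of 1.14 with a Cuffdiff p of 1.77e-07. The implied interval runs from 0.72 to 1.57, much like that of Mgmt, while the 4-OHT level of Parp3 stayed below the ethanol level of Mgmt.

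Rev1 had the smallest change and the weakest p. The level per the authors' deposited table was 10.01 RPKM under ethanol and 17.6 RPKM under 4-OHT, a log2 fold change of 0.82 with a Cuffdiff p of 0.000420. The implied interval runs from 0.36 to 1.27. Rev1 is the repair gene nearest to no change on the higher side, and Fancf, at -0.60 per the authors' deposited table, is the nearest on the lower side. The table leaves out changes under 1.5-fold, so the space around 0 is empty by construction.

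**Figure D1:**
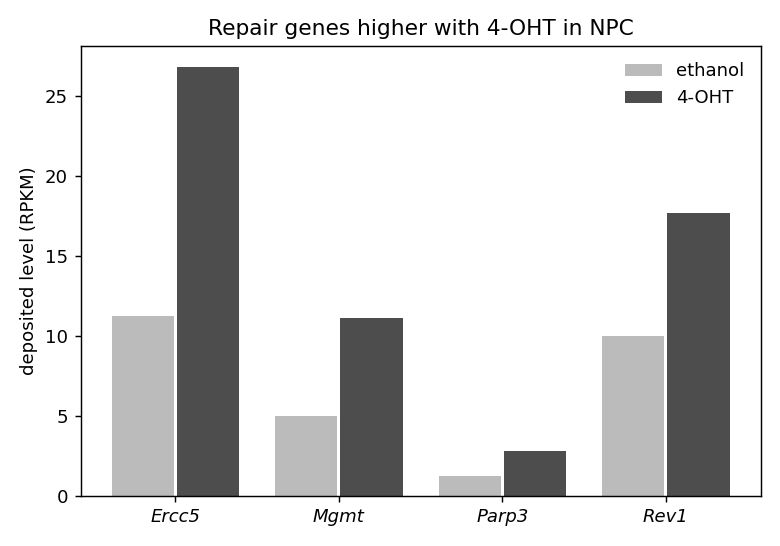
Deposited RPKM of the 4 genes in NPC with ethanol (light bars) and 4-OHT (dark bars), 1 value for each treatment and so no error bar. Each dark bar is the taller of its pair, from 2.78 RPKM for Parp3 to 26.8 RPKM for Ercc5.

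The order of the changes was Ercc5, Mgmt, Parp3 and Rev1, and the implied intervals of all neighbours in that order overlapped. The log2 difference was 0.10 with a standard error of 0.26 between Ercc5 and Mgmt, 0.01 with 0.31 between Mgmt and Parp3, and 0.33 with 0.32 between Parp3 and Rev1. The order of the 4-OHT levels differed, with Rev1 second and Parp3 last. Summed over the 4 genes, the level went from 27.5 to 58.3 RPKM.

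Among all genes listed in NPC, 56.6% were higher, and among the 1052 listed genes whose larger value lay in the range of the members, 46.5% were higher. Nothing is read from the members' own count of 4 of 4, since direction chose them. Their changes were of ordinary size among higher genes: Ercc5 stood at rank 436, Mgmt at 510, Parp3 at 519 and Rev1 at 905 of 1357 higher genes with a defined fold change. The members' median log2 fold change was 1.15, and that of all higher genes was 0.99. The median 4-OHT level was 14.4 RPKM for the members and 1.98 RPKM for all higher genes. All 4 stayed under 0.05 by the upper bound of the Benjamini-Hochberg adjusted Cuffdiff p, as did 69.3% of higher genes. The bound comes from the same contrast that chose the members, so it describes them and is no test of their rise. The bound was largest for Rev1, at 0.0144 (Cuffdiff p adjusted by Benjamini-Hochberg over 55341 gene names), and next for Parp3, at 1.48e-05.

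**Figure D2:**
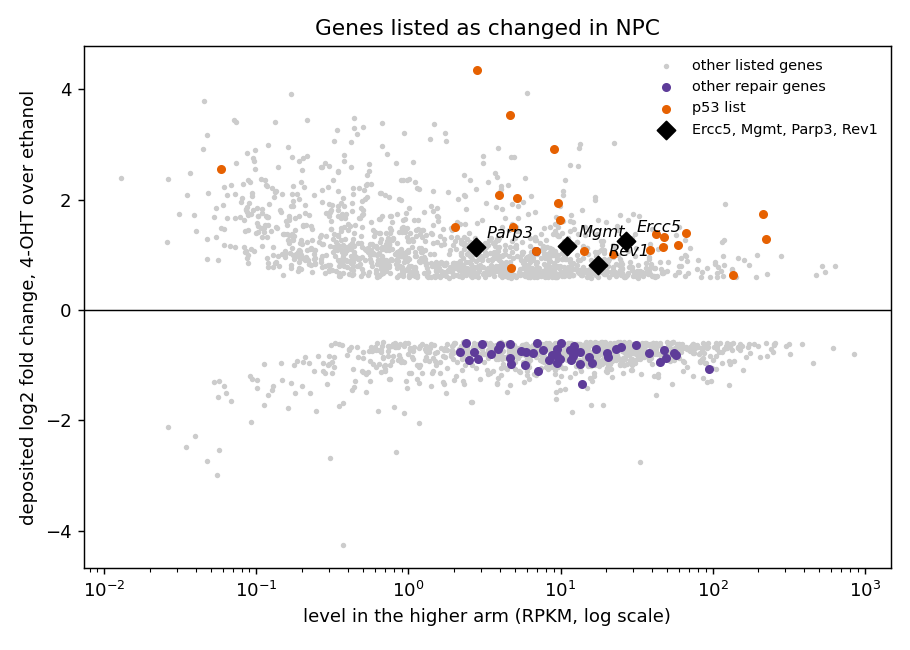
Log2 fold change in NPC against the level in the higher treatment (RPKM, log scale) for genes listed as changed, with p53 targets and regulators in orange, other repair genes in purple and the 4 members as black diamonds. The members lie between 0.82 and 1.26 on the vertical axis, and the empty band around 0 is the 1.5-fold limit of the table.

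Within the gene lists used here for their pathways the members had few listed partners, and most of these were lower. Of 22 nucleotide excision repair genes only Ercc5 and Lig1 were listed, and the ligase gene Lig1 was lower, at 57.9 RPKM under ethanol and 32.7 under 4-OHT per the authors' deposited table. The damage sensor genes Xpc and Ddb2, Xpa and the TFIIH helicase genes Ercc2 and Ercc3 were not listed. The 22 genes are not the whole pathway. They leave out Rpa1, Rpa2 and Rpa3, which were lower, at log2 values of -0.62, -0.63 and -0.60 per the authors' deposited table. Of 4 direct reversal genes Mgmt alone was listed.

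Parp3 was the higher gene of the PARP and single-strand break list, which holds 11 genes. Parp1 and Parp2, the better known damage-activated members of the family, were not listed. Of 10 end-joining genes, Xrcc6, which encodes the Ku70 end-binding protein, was the single one listed, at a log2 value of -0.64 per the authors' deposited table.

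The translesion list was split. Of 16 genes 6 were listed, and Rev1 and Polk were the higher ones. Polk, a translesion polymerase that binds Rev1 and is also in the p53 list, had 3.29 RPKM under ethanol and 6.88 under 4-OHT per the authors' deposited table, a log2 fold change of 1.06. Of the 56 listed repair genes it is the only one besides the members that was higher. The set behind this count is not complete. It leaves out the damage-response gene Rnf169, which was higher, at a log2 value of 1.25 per the authors' deposited table. It also leaves out Rpa1, Rpa2 and Rpa3, which were lower, as given above. Mad2l2, the subunit of polymerase zeta that binds Rev1, was at 23.3 RPKM under ethanol and 14.2 under 4-OHT per the authors' deposited table. Rad18, the ligase that marks the sliding clamp for bypass, and Usp1, which removes that mark, were both lower, at log2 values of -0.96 and -0.95 per the authors' deposited table. Polq, a polymerase of end joining, was lower by the smallest step of this list, at -0.62 per the authors' deposited table. Rev3l, the catalytic subunit of polymerase zeta, and the polymerase genes Polh and Poli were not listed.

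**Figure D3:**
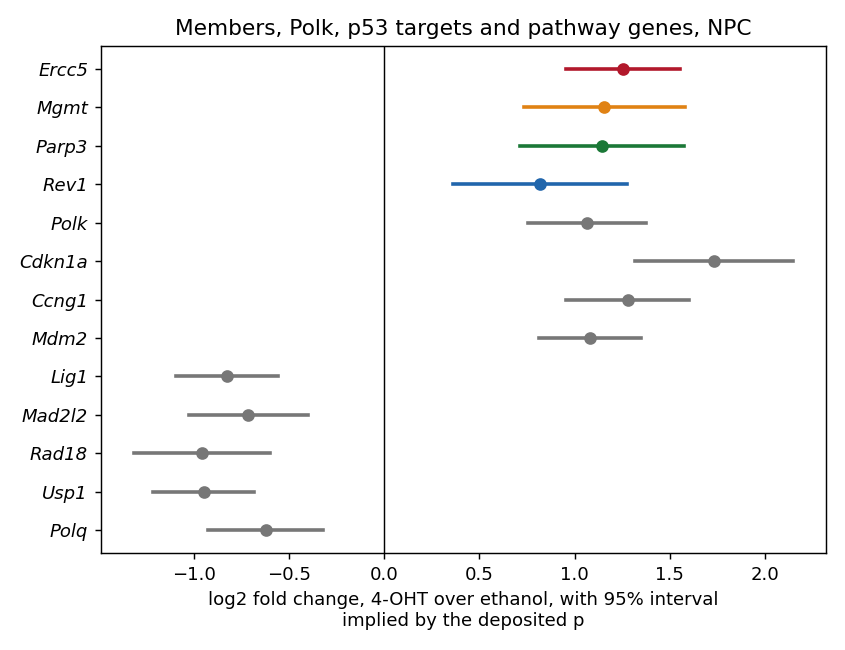
Log2 fold change of the members, Polk, 3 p53 targets and other listed genes of the excision and translesion lists in NPC, with the 95% interval implied by the deposited p. The intervals of Ercc5 and Cdkn1a are upper limits of width, and those of the 4 members overlap one another. Only genes with a p under 0.05 are listed, so no interval here can include 0. The side on which the members lie was fixed by their choice.

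In the remaining repair lists every listed gene was lower: 8 of 15 base excision genes, 4 of 8 mismatch, 14 of 26 recombination, 1 of 10 end joining, 9 of 13 Fanconi anaemia and 9 of 17 checkpoint genes were listed. The genes with the largest change in each were Apex1 (-1.07), Exo1 (-0.84), Recql (-1.33), Xrcc6 (-0.64), Fancl (-1.10) and Clspn (-0.96), each a log2 value per the authors' deposited table. Over all 142 genes, 5 were listed as higher, 8.93% of those listed, and 51 as lower, with medians of 1.14 and -0.78. With a log2 change of at least 1 required, 4 were higher, Rev1 being left out, and 4 were lower. The summed level of the 51 lower genes went from 833 to 468 RPKM, while that of the 5 higher genes went from 30.7 to 65.2 RPKM. In summed RPKM the gain was thus smaller than the loss over the listed repair genes, a comparison of 5 genes with 51. Abundant genes weigh most in such sums, and Apex1 alone went from 95.1 to 45.2 RPKM per the authors' deposited table.

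**Figure D4:**
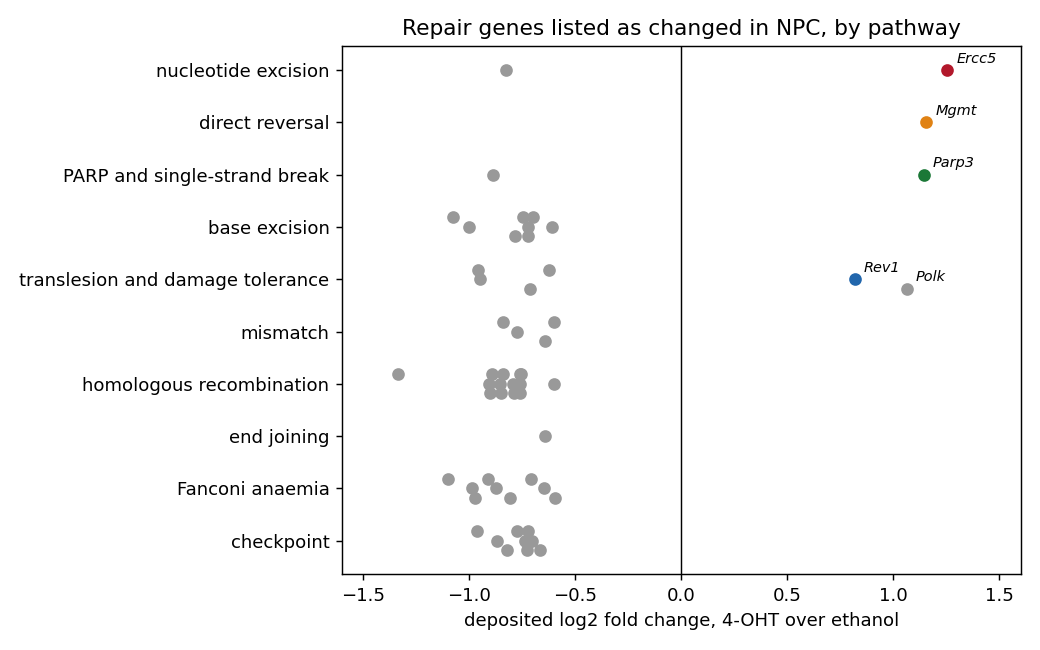
Deposited log2 fold changes in NPC of the 56 listed repair genes (1 point each, small vertical offsets for legibility), by pathway. The members, in color, and Polk are the points to the right of 0, and the other 51 lie between -1.33 and -0.60.

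The 23 higher genes of the p53 list had log2 fold changes from 0.64 to 4.35 and a median of 1.40, beside a range from 0.58 to 4.35 and a median of 0.99 over all higher genes. The cell cycle inhibitor gene Cdkn1a had 1.73, Ccng1 1.28 and the p53 ligase gene Mdm2 1.08, each a log2 value per the authors' deposited table. The cell cycle list ran the other way, with 46 of its 48 listed genes lower, out of 55, and a median of -0.80. Markers of differentiating cells moved beside the members: 7 of 14 glial markers were listed, all 7 higher, with a summed level of the listed markers of 76.5 RPKM with ethanol and 144 RPKM with 4-OHT. Aldh1l1 alone made up 67.7 and 118 RPKM of these sums in the authors' deposited table. Of 16 neuron markers 7 were listed, 6 of them higher and Snap25 lower, with summed levels of 7.78 and 15.1 RPKM. Tubb3 alone made up 4.81 and 9.59 RPKM of these sums in the authors' deposited table. By the upper bound of the adjusted Cuffdiff p, 4 of the 7 were under 0.05. Of 16 progenitor markers 3 were listed and 2 were higher, with Hes5 lower, at summed levels of 106 and 174 RPKM, of which Ednrb alone made up 86.0 and 161 RPKM in the authors' deposited table. Listed markers of other cells were few and higher: 1 of 16 for fibroblasts, 2 of 10 for immune cells and 2 of 8 for vessels and blood, with summed levels of at most 2.03 RPKM in either treatment. No listed marker was at 0. The part of these changes in the members' values was not tested.

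The listed genes most like each member over the 2 NPC values, by distance in log2 RPKM, were Ddit4l and Igdcc4 for Ercc5, Lrrc28 and Ptrf for Mgmt, Cyp7b1 and Rarg for Parp3, and Ogdhl and Fam195a for Rev1. The distances ran from 0.01 for Ogdhl to 0.19 for Igdcc4.

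In MEF, 0 of the 4 members were listed by Cuffdiff at an unadjusted p under 0.05, and 0 of the 142 repair genes were. The background is low, since only 111 genes were listed in MEF, beside 55341 annotated gene names. Of the genes listed in NPC 2.03%, and of the higher ones 1.1% with the same direction, were also listed in MEF. Nothing is thus read from these counts of 0. A gene not listed there had a higher p, a smaller change or was untested, so the members' MEF levels are not known and the 2 cell types were not compared. Among listed genes in the members' range of level, the implied standard error of the log2 fold change had a median of 0.17 in NPC and 0.39 in MEF, from 1052 and 56 genes. The smallest log2 change listed in MEF within that range was 0.65 in size. Of the 43 genes of the p53 list 1 was listed in MEF, and of the 55 genes of the cell cycle list 11 were.

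No splicing event of the 4 members is listed in either cell type, and 1.28% of the genes listed in NPC have one listed there. Splicing tables hold events with a difference between treatments within a pair of libraries, so an event without a listed difference is not shown. Events are listed in NPC for 222 genes, 5 of them among the 142 repair genes. Alkbh3 is the only one of the 5 that shares a repair list with a member. Alkbh3, which reverses alkylation damage by another reaction than Mgmt, has a skipped exon in 2 pairs, with the largest p-values among these repair events. Its inclusion level in the authors' deposited table was 0.447 with ethanol and 0.785 with 4-OHT in one pair, and 0.422 and 0.695 in the other.

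The loci bear on how far each value belongs to its gene. On GRCm38, Ercc5 (ENSMUSG00000026048) spans 44147744 to 44181260 of chromosome 1, and Mgmt (ENSMUSG00000054612) spans 136894614 to 137130266 of chromosome 7, and neither shares an exonic base with another annotated gene. Rev1 (ENSMUSG00000026082) spans 38052786 to 38129801 of chromosome 1 and shares 1643 exonic bases, 26.6% of its annotated exonic length, with the translation factor gene Eif5b on the opposite strand. The TruSeq v2 kit does not mark strand, so reads from that stretch cannot be assigned to Rev1 or Eif5b. The share of length is not a share of reads, and the Eif5b level is not known. How far the Rev1 value is affected is therefore unknown. Eif5b is not listed as changed in either cell type. Parp3 (ENSMUSG00000023249) spans 106470322 to 106476949 of chromosome 9 and shares 20 exonic bases, 0.541% of its exonic length, with Rrp9 on the opposite strand.

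None of the members' neighbors was listed as higher. Of 10 annotated genes within 20000 bp of a member, a window set after the values were seen, 2 were listed in NPC, both beside Parp3 and both lower. Beside all 55341 annotated gene names, 2416 rows were listed in NPC, 1367 of them higher. Which of the 10 were tested is not known, and some are non-coding models, so nothing is read from their count. Rrp9, a gene of ribosomal RNA processing whose body holds the Parp3 promoter, had 22.4 RPKM under ethanol and 14.3 under 4-OHT per the authors' deposited table. Pcbp4, an RNA-binding protein gene 6309 bp away, had 48.9 RPKM under ethanol and 28.1 under 4-OHT per the authors' deposited table. Bivm, 2973 bp upstream of Ercc5 on the same strand, was not listed.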

How the data were processed

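Per the submitters' processing notes, the authors aligned reads of 12 libraries to mm9 (TopHat2 2.03, Bowtie2 2.0.0.6) and used Cuffdiff 2.02. Per the file headers, the deposited expression tables hold 1 RPKM value per treatment, a log2 fold change (4-OHT over ethanol) and a p-value that is not adjusted. The deposited splicing tables hold inclusion levels as a fraction of 1 and a p-value per pair. Log2 values were recomputed from RPKM as a check. No new test was run on expression, since each treatment has 1 value. Standard errors were derived from deposited p-values under a normal distribution. The largest value that a Benjamini-Hochberg adjusted p could take was computed by counting all 55341 GENCODE M21 gene names as tested. Both calculations were run on simulated normal data, which checks the arithmetic only. Whether the Cuffdiff p-values follow a normal test could not be checked.

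The members and gene lists were chosen with earlier results of these data known. Named genes are the members, Prmt5, listed genes of the members' repair lists (some are not reported here), the gene with the largest change in each other repair list, 6 p53 targets where listed, and the 2 nearest genes in level. Rnf169, which the lists leave out, is named as well. List symbols were matched to older symbols through RefSeq synonyms, which placed 2. Locus data come from GENCODE M21 on GRCm38, and no coordinates were converted. Alternatives were pseudocounts, level, p and fold limits, and centring. Python 3.11.15 and SciPy 1.17.1 were used.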

Additional observations from a re-analysis of the deposited data

How the results depend on the processing

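The direction of the 4 members was fixed by their choice, and a pseudocount cannot turn it. Centred on the median of listed genes (0.66), which describes the listed genes and is no scaling of the libraries, the values were 0.60 for Ercc5, 0.50 for Mgmt, 0.49 for Parp3 and 0.16 for Rev1, which is within its implied standard error of 0.23. With a pseudocount of 1, Parp3, the gene with the lowest level, had 0.74. With an absolute log2 change of at least 1 required, 4 repair genes were lower in place of 51, because most falls were smaller than that. The other limits on level and p, and a list without 11 replication genes added after the data were seen, left 4 or 5 higher and 39 to 51 lower repair genes. No paired analysis was possible because the tables hold 1 expression value per treatment and the members have no splicing event, and for the same reasons no library could be left out. Settings for splicing events were not run, since the members have none. The depth of the libraries is unknown.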
